A study of Mus musculus with 6 samples.

Results

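Heat shock proteins and chaperones were taken as every mouse gene whose symbol starts with Hsp and a family letter or number, or with Dnaja, Dnajb or Dnajc and a number, together with Hspd1, Hspe1 and Bag1 to Bag6. The rule found 78 of the 25696 mouse genes named in the deposited tables. By role they were 3 HSP90 genes, 11 HSP70 genes, 3 HSP110 genes, 4 DNAJA, 12 DNAJB and 28 DNAJC genes, 7 small heat shock proteins, 2 mitochondrial chaperonin genes and 6 BAG genes. The symbol rule also took Hspg2, which encodes the matrix proteoglycan perlecan, and Hspb11, which encodes a subunit of the intraflagellar transport complex. These are not chaperones in the usual sense, and they were kept and counted. The tables did not all list the same genes: 73 of the 78 were in the SCRB-seq table, 77 in the SMART-Seq2 table, 75 in each plate table, 77 in the table of FFPE and frozen nuclei and 76 in the droplet table.

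HSP70 proteins bind unfolded stretches of other proteins and release them in a cycle driven by ATP. J proteins (the DNAJ families) bring them their clients and start the cycle, while BAG and HSP110 proteins exchange the nucleotide and end it. HSP90 proteins take over partly folded clients such as kinases and receptors. In living cells that are heated, heat shock factor binds repeats of the unit GAA and its inverse in promoters and raises Hspa1a, Hspa1b, Hspb1, Dnajb1 and Hsph1, whereas Hspa8 and Hsp90ab1 are made all the time. Neurons depend on 2 J proteins in particular: Dnajc5, the cysteine string protein of synaptic vesicles, and Dnajc6, the auxilin that helps Hspa8 strip clathrin from vesicles.

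Nuclei were taken from 50 µm scrolls of formalin-fixed, paraffin-embedded (FFPE) brain of C57BL/6J mice, and the labels give the tissue as cortex and the age as 8 to 12 weeks. All FFPE groups were thus fixed, embedded, cleared of paraffin and passed through ethanol before the nuclei were released. In bulk wells the paraffin was removed in 1 of 3 ways: with xylene at room temperature, with heated xylene or with heated mineral oil. The labels name no frozen tissue, yet the deposited annotation lists wells and single nuclei of it; no sex, animal or pooling is given for any well or nucleus. SCRB-seq, which reads the 3′ ends of transcripts, had 64 wells: 8 of 10 nuclei and 8 of 100 nuclei for each of the 3 methods and for frozen tissue. SMART-Seq2, which reads along whole transcripts, had 12 wells: 1 each of 10, 50 and 100 nuclei for each method and for frozen tissue. Single nuclei were 98 in plate batch 1, 143 FFPE and 137 frozen nuclei in the table that sets these side by side, and 7031 in droplets.

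The wells of an assay belong to 1 sample in the labels, so the tests see the spread between wells and not between animals. In SCRB-seq each set of 8 wells (1 method and 1 nuclei number) carried 1 of 8 library indexes, so a method at 1 nuclei number cannot be told apart from its pool. Mouse counts per well ran from 7512 to 167144 in SCRB-seq and from 270363 to 942966 in SMART-Seq2, and the 10-nuclei wells of mineral oil held only 7512 to 20593. FFPE and frozen material differed in more than fixation. Of 5 markers of cerebellar granule neurons, 4 were in the bulk tables, and they summed to 386 to 2054 CPM (the usual scaling of counts by the mouse total of a well) in the 9 SMART-Seq2 FFPE wells but to 0 in the 3 frozen wells. In SCRB-seq they gave 3485 counts in 48 of 48 FFPE wells and 8 counts in 5 of 16 frozen wells, where Gabra6 and Cbln3 were at 0. The 3 markers of excitatory cortical neurons summed to 399 to 564 CPM in frozen SMART-Seq2 wells and 6.73 to 222 CPM in FFPE wells. The Y-linked Eif2s3y was at 0 in all FFPE bulk wells but had 153 counts in 3 of 3 frozen SMART-Seq2 wells and 102 counts in 12 of 16 frozen SCRB-seq wells. Other Y-linked genes were not at 0 in the 48 SCRB-seq FFPE wells: Ddx3y had 61 counts in 26 wells, Uty 50 in 28 and Kdm5d 16 in 11. In SMART-Seq2 Ddx3y, Uty and Kdm5d had 0, 1 and 0 counts in the 9 FFPE wells and 56, 126 and 185 in the 3 frozen wells. Region, sex and animal therefore cannot be told apart from fixation in any FFPE and frozen comparison below, and in bulk wells fewer cells of a type cannot be told apart from less RNA per cell.

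The heated methods raise the question of the heat shock element, so promoters were searched for 3 alternating units: GAA, TTC and GAA in this order with any 2 bases between neighbours, on either strand. The window was 300 bases around each RefSeq gene start on GRCm38.p6. It held a match in 4 of the 63 chaperone genes with a promoter in the RefSeq table (6.35%) and in 179 of 27025 genes of the table (0.662%). The 4 were Dnajb6, Hspd1, Hspe1 and Hsph1, and their matches are shown because they are the members with the longest form of the element. Capitals mark the match and each stretch is read 5′ to 3′ on the strand of its gene.

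Dnajb6, chr5:29735844-29735872 (+): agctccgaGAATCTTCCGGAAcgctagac

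Hspd1, chr1:55088056-55088084 (-): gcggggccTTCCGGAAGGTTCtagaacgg

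Hspe1, chr1:55088051-55088079 (+): acggtccgTTCTAGAACCTTCcggaaggc

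Hsph1, chr5:149636280-149636308 (-): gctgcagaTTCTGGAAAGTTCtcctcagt

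Hspd1 and Hspe1, the mitochondrial chaperonin and its partner, lie head to head on chromosome 1, Hspd1 at 55077835 to 55088243 on the minus strand and Hspe1 at 55088132 to 55091307 on the plus strand (GENCODE M21, GRCm38). Their 2 stretches overlap, and both lie inside the GENCODE span of Hspd1. Distances here count from the RefSeq starts that were searched, which differ from the ends of the GENCODE spans. From these the matches centre 138 bases before the Hspd1 start and 83 bases before the Hspe1 start. The Dnajb6 match centres 40 bases before the nearer of its starts, and the Hsph1 match 21 bases after its start. All 4 matches fall in annotated exons. The shorter form, GAA and TTC in either order with 2 bases between, which every long match contains, was in 17 of 63 chaperone promoters (27.0%) and in 4587 of 27025 (16.97%); it was found in Hspa1a, Hspa1b, Bag3, Hspb8, Dnaja1 and Dnajb4 among others. A match describes letters only. For 15 of the 78 genes, among them Hspa8, Hsp90aa1, Hsp90ab1 and Dnajc5, no promoter was searched.

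The chaperone genes made up a small and similar share of each bulk assay: 14636 of 4042195 mouse counts in SCRB-seq (0.362%) and 26656 of 7277607 in SMART-Seq2 (0.366%). The 5 leading genes held 37.4% of the chaperone counts in SCRB-seq FFPE wells and 44.2% in SMART-Seq2 FFPE wells. In SCRB-seq FFPE wells Hsp90ab1, the constitutive cytosolic HSP90, had 1161 counts, its stress-inducible partner Hsp90aa1 1059, Hspa8 (the constitutive HSP70, also called Hsc70) 918, Dnajc6 509 and Dnajc5 460. The order of the summed HSP90 pair was not the same in every method or assay. In SCRB-seq Hsp90aa1 led in mineral oil (270 against 204 counts) and heated xylene (473 against 340), and Hsp90ab1 at room temperature (617 against 316), while ratios in single wells overlapped (0.259 to 8.56 in heated xylene, 0 to 1.03 at room temperature). In SMART-Seq2 Hsp90ab1 led in heated xylene (915 against 729) and Hsp90aa1 at room temperature (737 against 608) and in mineral oil (512 against 325). In SMART-Seq2 FFPE wells the same 5 genes led, with Hspa8 at 2591 counts and Dnajc5 at 1606. As these reads cover whole transcripts, levels between genes were compared per kilobase of exon. Hspa8 stood at 109 ± 26.5 CPM per kb (SD, n = 9 FFPE wells), Hsp90ab1 at 105 ± 50.7 and Hsp90aa1 at 91.6 ± 33.1, which do not differ beyond their spread, and Dnajc6 and Dnajc5 followed at 49.3 ± 15.3 and 44.2 ± 33.2. In the 3 frozen wells Hsp90ab1 led with 64.7 ± 2.86 CPM per kb, ahead of Dnajc6 (52.7 ± 7.18), Hspa8 (40.5 ± 6.82), the ER-resident HSP90 gene Hsp90b1 (34.8 ± 11.8), Dnajc17 (24.6 ± 10.8) and Hsp90aa1 (23.9 ± 5.40).

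The first question was whether heating changed chaperone transcripts, with heated xylene against the same solvent at room temperature. With the filter on low counts, no chaperone gene passed the test in either assay. After the filter on low counts 5 of the 73 listed genes could be tested in SCRB-seq, and 0 passed in edgeR's quasi-likelihood test, against 1.94% of all 1080 genes. None had an unadjusted p under 0.05 in edgeR, and DESeq2 also called 0, with 1 at an unadjusted p under 0.05. Of the 5 genes, the lowest adjusted p was that of Hsp90ab1, with log2 fold change -0.73 (SE 0.38, adjusted p = 0.345, edgeR), and the median over the 5 was 0.00, with -0.02 over all genes. Without the filter 16 of 70 passed, 6 higher and 10 lower with heat, beside 15.9% of all 18205 genes. The largest changes were those of Dnajc9 (-4.91), Dnajc15 (-4.32) and Bag3 (4.15), and Hspb1 (-1.94) and Hspb8 (-2.75) were also among them. The few counts of Bag3, Hspb1 and Hspb8 are given below.

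Hspa8, on chromosome 9 at 40800984 to 40810087, ranged from 70.4 to 651 CPM (median 240) in room-temperature wells of 10 nuclei and from 311 to 858 (median 392) in heated-xylene wells of 10 nuclei. In wells of 100 nuclei it ran from 113 to 522 (median 387) at room temperature and from 72.5 to 401 (median 223) with heat. The ranges overlap at both nuclei numbers, with the higher median in the heated wells at 10 nuclei and in the unheated wells at 100. Its log2 fold change was 0.13 (SE 0.41). Small nucleolar RNA genes lie inside the Hspa8 gene, so its counts may include theirs.

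Hsp90aa1, on chromosome 12, was the gene that differed with the nuclei number. In room-temperature wells of 10 nuclei it had 12 counts in 5 of 8 wells (0 to 61.6 CPM, median 19.6), while heated-xylene wells of 10 nuclei had 195 counts in 8 of 8 wells (34.5 to 984 CPM, median 238). In wells of 100 nuclei the values were 323 to 599 CPM (median 437) at room temperature and 115 to 724 (median 412) with heat. The low set was thus the 1 pool of room-temperature wells of 10 nuclei, while the 100-nuclei sets overlapped. The heated minus unheated difference was 3.87 on the log2 scale at 10 nuclei and -0.07 at 100, and the test of this difference gave 3.94 (SE 0.91, adjusted p = 0.00338, edgeR interaction term). By that term 1 of 5 chaperone genes passed, beside 5% of all genes. Over both nuclei numbers Hsp90aa1 stood at 0.83 (SE 0.52, adjusted p = 0.456), a difference that did not pass.

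**Figure D1:**
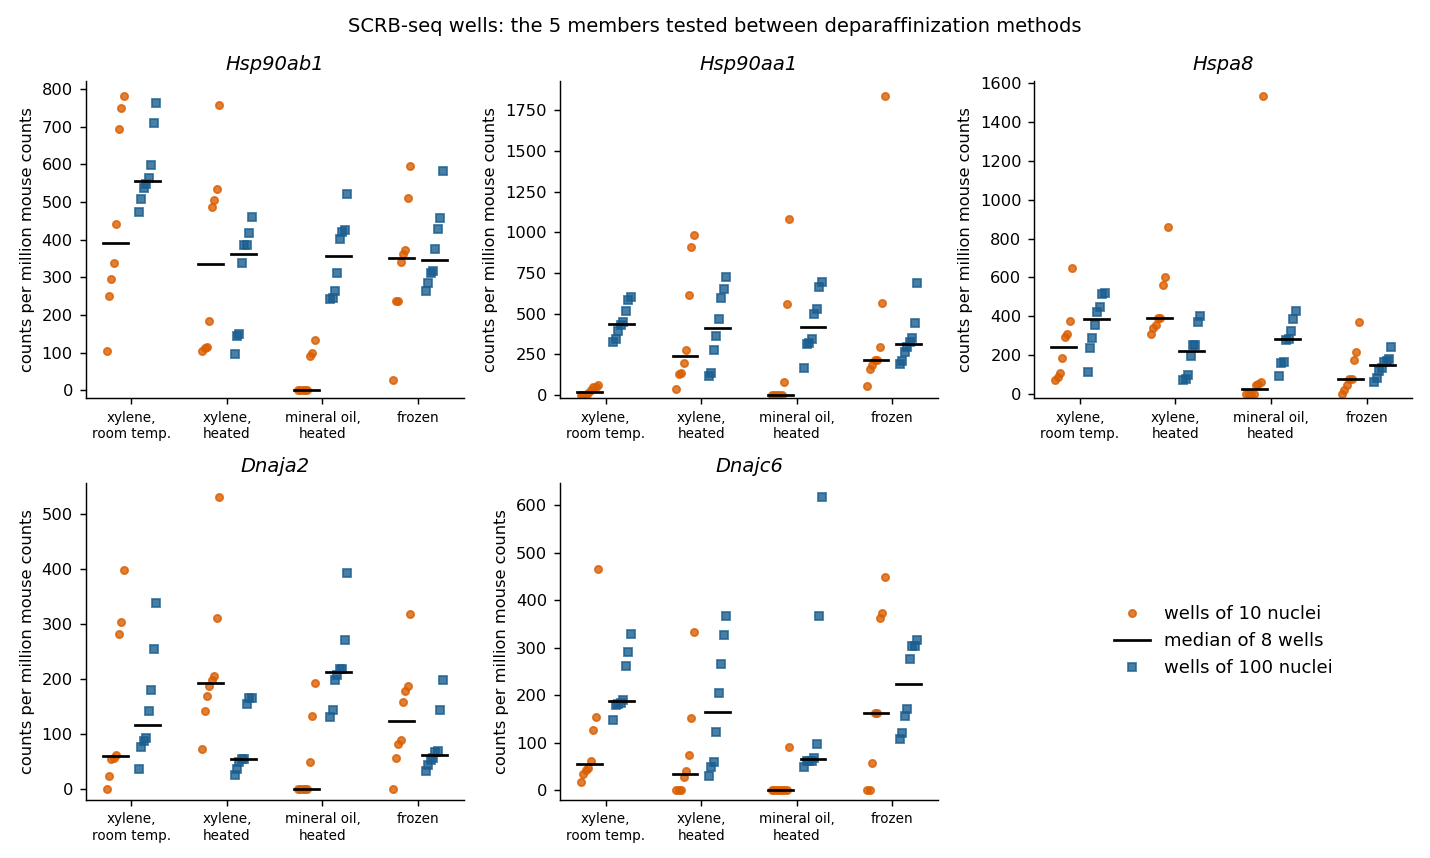
Level in CPM of the tested chaperone genes in each SCRB-seq well, by method (horizontal axis), with circles for wells of 10 nuclei, squares for wells of 100 nuclei and lines at the medians of 8 wells. Mineral-oil wells of 10 nuclei have a median of 0 for Hsp90ab1 (0 to 133 CPM), Dnaja2 (0 to 192) and Dnajc6 (0 to 90.4), and room-temperature wells of 10 nuclei sit at 0 to 61.6 CPM for Hsp90aa1.

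SMART-Seq2 gave the same comparison with 1 well at each nuclei number. Of 77 listed genes 47 could be tested, and 0 passed, as did 0% of all 8372 genes; 0 had an unadjusted p under 0.05 in edgeR, and DESeq2 called 0. Hspa8 stood at 479, 564.5 and 699 CPM in the room-temperature wells of 10, 50 and 100 nuclei and at 317, 444 and 406 CPM in the heated-xylene wells. Hsp90aa1 stood at 424, 460 and 544 CPM without heat and at 252, 283 and 387.5 CPM with heat. For both genes all 3 heated wells lay below all 3 unheated wells, and neither difference passed the test. That order held for 4 of the 47 genes (also Dnaja3 and Hspa2), beside 4.34% of all genes, and the opposite order for Hspe1 alone, beside 4.68%. Of the 47 genes 22 had a fold change above 0, and their median was -0.01 with 0.10 over all genes.

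Most other genes known to rise with heat in living cells had few counts in all wells. Hspa1a and Hspa1b, the inducible HSP70 pair, lie close together on chromosome 17 and are nearly identical, so reads may be split between them or lost. In SCRB-seq Hspa1a had 1 count in the room-temperature wells and 0 in both heated sets, and Hspa1b had 0 in all FFPE wells, where 3 counts would be 1.01 CPM. In SMART-Seq2 Hspa1a had 0 counts at room temperature, 5 in heated xylene and 2 in mineral oil, and Hspa1b had 0 in each. Hspb1, the small heat shock protein of stressed cells, had 6 counts at room temperature and 0 in either heated set in SCRB-seq, and 2, 0 and 0 counts in SMART-Seq2. Its relative Hspb8 had 16 counts at room temperature and 0 in both heated sets in SCRB-seq, and 14, 4 and 3 counts in SMART-Seq2 in the order room temperature, heated xylene and mineral oil.

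Bag3, which pairs with small heat shock proteins in clearing misfolded proteins, and Dnajb1, a J protein partner of inducible HSP70, had heated xylene on opposite sides of room temperature in the 2 assays. In SCRB-seq Bag3 summed to 0 counts at room temperature, 31 in heated xylene (27.5 CPM, exact 95% Poisson interval 18.7 to 39.0) and 1 in mineral oil. All 31 came from 7 of the 8 heated-xylene wells of 10 nuclei, with up to 17 in a single well, and the 8 heated-xylene wells of 100 nuclei had 0. In SMART-Seq2 Bag3 was at 8.39 CPM (4.47 to 14.3) at room temperature, 3.72 (1.70 to 7.06) in heated xylene and 1.19 in mineral oil, and the first 2 intervals overlap.

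Dnajb1 summed to 4.29 CPM (1.39 to 10.0) at room temperature, 19.5 (12.2 to 29.5) in heated xylene and 21.9 (12.3 to 36.2) in mineral oil in SCRB-seq. In SMART-Seq2 it was at 18.1 CPM (12.0 to 26.1) at room temperature, 3.72 (1.70 to 7.06) in heated xylene and 7.15 in mineral oil. Single wells and pools carried the SCRB-seq sums. Of 22 heated-xylene counts 19 came from wells of 10 nuclei, where room-temperature and mineral-oil wells had 0, and 10 of 15 mineral-oil counts came from 1 well of 100 nuclei. At 100 nuclei heated xylene had 3 counts in 1 well and room temperature 5 in 4 wells. These intervals cover counting error only and not the spread between wells or pools. SMART-Seq2 counts are reads and not molecules, so its intervals are narrower than the error in molecules. No source used here says which of these the SCRB-seq counts are.

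Hspe1, the mitochondrial cochaperonin, had its highest sum in heated xylene in both assays. In SCRB-seq it stood at 24.0 CPM (15.96 to 34.7) at room temperature, 65.6 (51.5 to 82.4) in heated xylene and 20.5 (11.2 to 34.4) in mineral oil, and in SMART-Seq2 at 14.8, 33.0 (26.2 to 41.1) and 8.94 CPM. In SCRB-seq wells of 10 nuclei Hspe1 had 0 counts at room temperature and 25 in 8 of 8 heated-xylene wells. Wells of 100 nuclei overlapped: 0 to 94.2 CPM at room temperature, 0 to 133 in heated xylene and 0 to 218 in mineral oil. Without the filter Hspe1 was not called with heat in SCRB-seq. In SMART-Seq2 it stood at 1.35 on the log2 scale (SE 2.06, edgeR) and did not pass. Its neighbour Hspd1, which shares the promoter stretch printed above, did not follow: it stood at 46.3, 27.5 and 58.5 CPM in SCRB-seq and at 98.1, 38.8 and 84.6 CPM in SMART-Seq2, with the lowest sum in heated xylene each time. The 2 genes overlap on opposite strands, and no source used here says whether counting used the strand, so their counts cannot be fully separated. Hsph1, an HSP110 gene whose promoter also holds the element, stood at 42.9, 41.7 and 42.4 CPM in SCRB-seq and at 38.7, 17.3 and 44.7 CPM in SMART-Seq2. Dnajb6, the other gene with the element, differed by -0.38 on the log2 scale with heat in SMART-Seq2 (SE 1.10, edgeR) and did not pass.

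**Figure D2:**
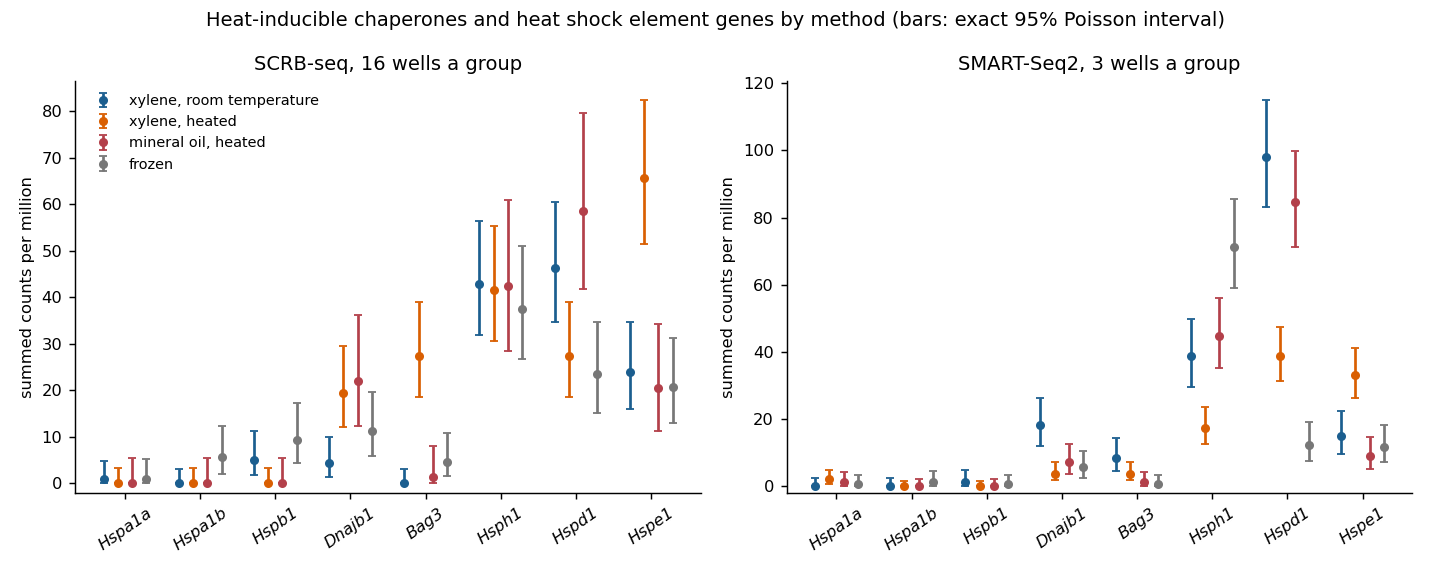
Summed level in CPM of 8 chaperone genes that heat induces or whose promoters hold the element, by method, in SCRB-seq (left) and SMART-Seq2 (right), with exact 95% Poisson intervals that cover counting error only. SMART-Seq2 counts are reads and not molecules, so its intervals are narrower than the error in molecules. Dnajb6, whose promoter also holds the element, is not drawn. The sums of Bag3 and Dnajb1 are higher in heated xylene than at room temperature in SCRB-seq and lower in SMART-Seq2 (with overlapping intervals for Bag3), while the sum of Hspe1 is highest in heated xylene in both. For Hspe1 the SCRB-seq wells of 100 nuclei overlap, and the difference with heat did not pass in SMART-Seq2.

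Mineral oil was then set against heated xylene, which changes the solvent and keeps the heat. In SCRB-seq 0 of 5 chaperone genes passed in edgeR, beside 8.52% of all genes. None had an unadjusted p under 0.05, and DESeq2 called 0. The median log2 fold change was -0.36 over the 5 genes and -0.15 over all genes. Without the filter 20 of 70 passed, beside 18.8% of all genes, among them Hspa9, the mitochondrial HSP70, which fell by 3.06 on 113 counts in heated xylene and 6 in mineral oil. In SMART-Seq2 0 of 47 passed in edgeR, as did 0% of all genes. There Dnajb11, an ER J protein, and Dnajc25 had an unadjusted p under 0.05, at 5.11 and -6.002 on the log2 scale, and DESeq2 called 0 of the 47.

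Against room-temperature xylene, mineral oil changes both heat and solvent, and 1 of 5 chaperone genes in SCRB-seq passed, beside 10.3% of all genes (7.78% lower). It was Hsp90ab1, on chromosome 17 at 45567775 to 45573271, which fell by 1.31 on the log2 scale in mineral oil (SE 0.39, adjusted p = 0.0226, edgeR). In room-temperature wells it ranged from 106 to 782 CPM (median 390) at 10 nuclei and from 473 to 763 (median 555) at 100 nuclei. In mineral-oil wells it ranged from 0 to 133 CPM (median 0) at 10 nuclei, on 4 counts in 3 of 8 wells, and from 242 to 521 (median 356) at 100 nuclei. The mineral-oil wells of 10 nuclei were the lowest and overlapped the room-temperature wells only at the edge. In wells of 10 nuclei alone the difference was -3.85 (adjusted p = 0.000336, edgeR), and 1 of 2 chaperone genes passed there, beside 97 of all 509 genes. In wells of 100 nuclei alone the difference was -0.65 (adjusted p = 0.173, edgeR) and did not pass, and 0 of 8 chaperone genes passed there, beside 9.11% of all genes. Markers of other cells moved in both directions in the mineral-oil wells. The 4 oligodendrocyte markers summed to 581 CPM in mineral oil, in 9 of 16 wells (0 to 1462 CPM), 1993 at room temperature and 2279 in heated xylene, each in 16 of 16 wells. The 3 markers of inhibitory neurons summed to 136, 467 and 528 CPM, with Gad2 at 0 in mineral oil. In the same order, mineral oil, room temperature and heated xylene, astrocyte markers summed to 1429, 1076 and 1183 CPM, cerebellar granule markers to 1690, 900 and 1136 CPM and microglial markers to 187, 65.2 and 177 CPM, all highest in mineral oil. Their part in the Hsp90ab1 difference was not tested. Without the filter 15 of 70 passed, 1 higher and 14 lower in mineral oil, beside 16.1% of all genes.

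Other tested genes also depended on nuclei number, more of them in some contrasts than in others. For mineral oil minus room-temperature xylene 4 of 5 chaperone genes passed the interaction term in edgeR, beside 29.6% of all genes. Hsp90ab1 differed by -3.92 at 10 nuclei and -0.65 at 100, Dnajc6 by -3.75 and -0.25, and Dnaja2, a cytosolic J protein on chromosome 8, by -2.28 and 0.64. Hsp90aa1 went the other way, at 2.66 and 0.03, against the low room-temperature pool described above and with 22 counts in 3 of 8 mineral-oil wells. For mineral oil minus heated xylene 2 of 5 passed, beside 28.6% of all genes: Hsp90ab1 with -3.36 at 10 nuclei and 0.26 at 100, and Dnaja2 with -2.70 and 1.33. Tested in wells of 10 nuclei alone, 1 of 2 chaperone genes passed for mineral oil minus heated xylene (Hsp90ab1, lower), beside 20.8% of all genes, and in wells of 100 nuclei alone 1 of 8 (Dnaja2, higher), beside 13.1%.

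The wells behind these terms were as follows. Dnaja2 ran from 72.1 to 530 CPM (median 193) in heated-xylene wells of 10 nuclei and from 0 to 192 (median 0) in mineral-oil wells of 10 nuclei, on 4 counts in 3 of 8 wells. In wells of 100 nuclei it ran from 24.96 to 165 CPM (median 54.1) in heated xylene and from 131 to 393 (median 212) in mineral oil, so the order of the medians turned around. Dnajc6 ran from 17.6 to 465 CPM (median 54.4) at room temperature and had 1 count in mineral oil in wells of 10 nuclei, while in wells of 100 nuclei it ran from 148 to 329 (median 188) and from 47.9 to 617 (median 65.2). Hsp90ab1 in heated xylene ran from 104 to 757 CPM (median 337) at 10 nuclei and up to 459 (median 362) at 100, close to its mineral-oil wells of 100 nuclei.

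The mineral-oil wells of 10 nuclei detected the fewest chaperone genes, as they did genes of any kind. They detected 5 to 10 of the 73 listed chaperone genes (median 8), where heated-xylene wells of 10 nuclei detected 26 to 39 and room-temperature wells 20 to 40. Chaperone genes took 0.0399% to 0.259% of their counts, which overlaps the 0.151% to 0.478% at room temperature but not the 0.289% to 0.578% in heated xylene. In wells of 100 nuclei mineral oil, heated xylene and room temperature overlapped at 0.298% to 0.426%, 0.239% to 0.444% and 0.350% to 0.523%. The mineral-oil wells of 10 nuclei also detected 1622 to 2623 of all 19006 genes (median 2088.5), against 5261 to 7956 in heated xylene and 4586 to 8963 at room temperature. Their 50 leading genes took 29.7% to 62.2% of counts (median 49.0%), which overlaps the 17.5% to 41.2% (median 30.4%) at room temperature and, at the edge, the 20.5% to 31.0% in heated xylene. The part of depth and pool in these low values was not tested.

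In SMART-Seq2, mineral oil against room-temperature xylene gave 0 of 47 chaperone genes in edgeR, with 0% of all genes, and DESeq2 called 0. Dnajb11, Dnajc18 and Dnajc25 had an unadjusted p under 0.05, at 4.50, 3.29 and -7.12 on the log2 scale. Hsp90ab1 stood at 9.75 CPM in the mineral-oil well of 10 nuclei and at 251 and 288 CPM in those of 50 and 100, where room-temperature wells had 376, 448 and 344 CPM. The low well was again the one of 10 nuclei. The 3 HSP90 genes all had fold changes below 0 in mineral oil, with a median of -1.07 against room-temperature xylene and -0.98 against heated xylene, and none passed the test.

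FFPE wells were compared with frozen wells by taking the average over the 3 methods less the frozen value. In SCRB-seq 2 of 7 tested chaperone genes passed in edgeR, beside 58% of all 1478 genes (30.2% higher and 27.7% lower). Hspa8 rose by 1.10 (SE 0.35, adjusted p = 0.00585). Dnajc1, an ER-membrane J protein whose gene spans 197 kb on chromosome 2, fell by 0.78 (SE 0.35, adjusted p = 0.0498). The medians were -0.08 over the 7 genes and 0.00 over all genes. Without the filter 16 of 73 passed, 2 higher and 14 lower in FFPE, beside 25.2% of all 19006 genes, with Bag6 at 1.47 and Hsp90b1 at -3.41.

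For Hspa8 the frozen wells ran from 0 to 372 CPM (median 79.6) at 10 nuclei and from 62.2 to 240 (median 149) at 100, and the FFPE wells of 100 nuclei ran from 72.5 to 522 (median 282). The groups overlap, and at 100 nuclei the FFPE median lies above the highest frozen well. The call depended on scaling: with DESeq2's size factors the median over all genes moved to -0.58, and Hspa8 stood at 0.50 (SE 0.36, adjusted p = 0.207). Under that scaling 309 of all genes were called higher and 674 lower, against 447 and 410 with the scaling used here, and 0 chaperone genes were called higher and 3 lower (Hsp90ab1, Dnajc1 and Dnajc6), against 1 and 1, where 66.5% of all genes were called. With size factors from positive counts, chosen after seeing the data, 1 was called (Hspa8, higher), beside 56.4%. DESeq2's own Wald test called 4 chaperone genes, all lower, beside 67.9% of all genes. Dnajc1 ranged from 117 to 318 CPM (median 185) in frozen wells of 100 nuclei and from 0 to 404 (median 131) in FFPE wells of 100 nuclei, which overlap widely. Its adjusted p in wells of 100 nuclei alone was 0.0889 by edgeR.

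In SMART-Seq2 0 of 48 chaperone genes passed in edgeR, beside 4.09% of all 9092 genes, and 5 had an unadjusted p under 0.05. DESeq2 called 3 (Hspa8, Hsp90aa1 and Hsp90b1), beside 7.05% of all genes. Hspa8 stood at 202, 178 and 144 CPM in the frozen wells of 10, 50 and 100 nuclei and at 317 to 699 CPM in the 9 FFPE wells. Every FFPE well was above every frozen well, an order that 3.72% of all tested genes had and that held for Hspa8 alone of the 48. The log2 fold change was 1.15 (SE 0.43, adjusted p = 0.156 by edgeR and 0.0474 by DESeq2), close in size to that in SCRB-seq.

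Hsp90aa1 stood at 111, 70.3 and 101 CPM in the frozen SMART-Seq2 wells, and FFPE wells ranged from 101 to 544 CPM, the lowest being the mineral-oil well of 10 nuclei. Its log2 fold change was 1.61 (SE 0.53, adjusted p = 0.107 by edgeR and 0.0185 by DESeq2). Leaving out the mineral-oil well of 10 nuclei gave 1.85 (adjusted p = 0.0173, edgeR) and leaving out the room-temperature well of 10 nuclei gave 1.73 (adjusted p = 0.0498, edgeR), so each of these wells decides the call. In SCRB-seq the same gene stood at -0.29 and did not pass. The ratio of Hsp90aa1 to Hsp90ab1 counts was 1.07 in FFPE and 0.514 in frozen SMART-Seq2 wells, but 0.912 and 1.01 in SCRB-seq.

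Hsp90b1, which encodes the ER chaperone Grp94, lay on the frozen side. In SMART-Seq2 the frozen wells had 190, 137 and 94.3 CPM and the FFPE wells 0 to 65.3 CPM, with no overlap. Its log2 fold change was -2.76 (SE 0.96, adjusted p = 0.123 by edgeR and 0.0402 by DESeq2). In SCRB-seq, where the filter on low counts left it out, it summed to 19.1 CPM in FFPE and 120 CPM in frozen wells, and all 24 FFPE wells of 10 nuclei had 0 counts while 5 of 8 frozen wells of 10 nuclei had one. In SCRB-seq wells of 100 nuclei FFPE and frozen overlapped. Hsp90b1 ran there from 0 to 114 CPM at room temperature, 0 to 216 in heated xylene and 24.5 to 284 in frozen wells, with 0 counts in mineral oil. Hspa12a, a distant HSP70 relative, was the other gene whose FFPE wells all lay below the frozen wells in SMART-Seq2: 0 to 71.0 CPM against 127, 129 and 107 CPM (log2 fold change -2.10, adjusted p = 0.345, edgeR). That order held for 2 of 48 chaperone genes and for 4.96% of all genes tested.

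**Figure D3:**
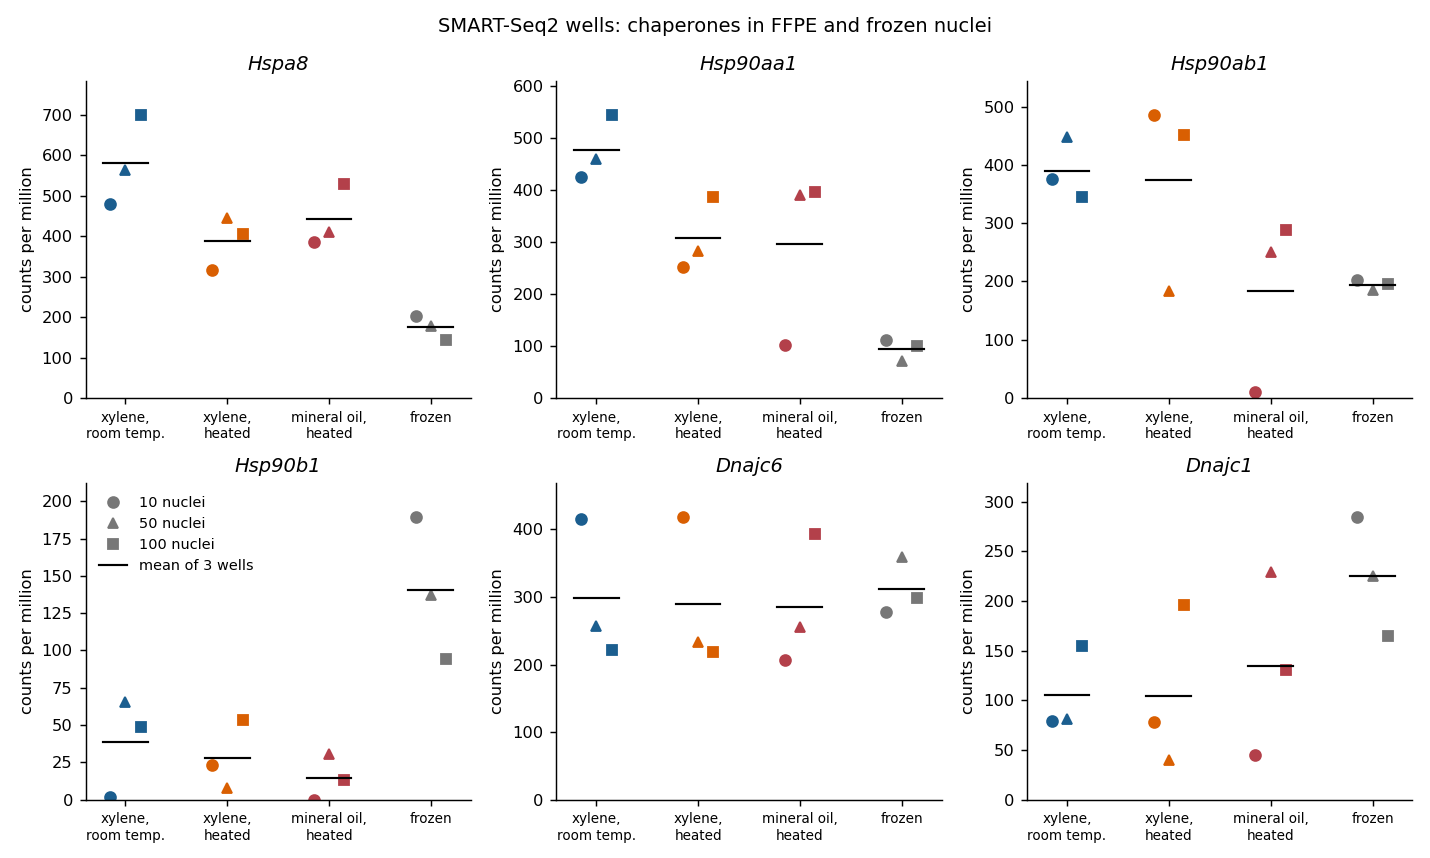
Level in CPM of 6 chaperone genes in each SMART-Seq2 well, by method, with a symbol for each nuclei number and a line at the mean of 3 wells. All 9 FFPE wells lie above the 3 frozen wells for Hspa8 (317 CPM or more against 202 or less) and below them for Hsp90b1 (65.3 CPM or less against 94.3 or more).

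By role, the SMART-Seq2 differences between FFPE and frozen wells pointed in different directions, none passing the test. Of 20 tested DNAJC genes 15 lay below 0 and 5 above, with a median of -0.85 on the log2 scale, where 4191 of all 9092 genes lay above 0. The 3 tested BAG genes all lay above 0 (median 1.89), as did both chaperonin genes (median 1.15). Medians were 0.62 for 7 DNAJB genes, 0.46 for 6 HSP70 genes, 0.35 for 3 HSP90 genes, -0.09 for 3 DNAJA genes and -0.82 for 3 HSP110 genes, where all genes had -0.13. DNAJC genes made up 34.8% of the chaperone counts in FFPE and 46.8% in frozen SMART-Seq2 wells, and 31.6% and 39.9% in SCRB-seq.

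Single genes within these roles varied widely among FFPE wells. Hspd1 stood at 10.1, 18.5 and 12.9 CPM in frozen SMART-Seq2 wells and at 16.6 to 160 CPM in FFPE wells, and Hspa9, also called mortalin, at 18.5 to 28.1 and 12.2 to 176 CPM. Hspa5, the ER HSP70 also called BiP, stood at 18.0 to 70.7 CPM in frozen and 0 to 129 CPM in FFPE wells, and the 2 groups overlap. Bag1 stood at 0 to 7.40 CPM in frozen and 2.03 to 222 CPM in FFPE wells. The HSP110 genes overlapped as well: Hspa4 at 55.5 to 77.1 CPM frozen and 7.80 to 135 CPM FFPE, Hspa4l at 32.1 to 62.9 and 16.2 to 286 CPM, and Hsph1 at 47.1 to 86.4 and 0 to 91.7 CPM. Dnaja1, at 62.1 to 81.4 CPM in frozen and 24.4 to 365 CPM in FFPE wells, did the same.

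The share of all counts taken by chaperone genes did not overlap between FFPE and frozen SMART-Seq2 wells. It was 0.434%, 0.447% and 0.470% in the room-temperature wells of 10, 50 and 100 nuclei, 0.335%, 0.353% and 0.392% in heated xylene, 0.345%, 0.361% and 0.417% in mineral oil, and 0.296%, 0.288% and 0.263% in frozen wells. The room-temperature wells were the highest and the frozen wells the lowest. In SCRB-seq wells of 100 nuclei the frozen share, 0.307% to 0.428%, overlapped all 3 methods.

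One property that the symbol rule did not use went with the direction of change, the length of the gene on the genome. In SMART-Seq2 the 19 tested chaperone genes that span less than 20 kb had a median FFPE minus frozen log2 fold change of 1.02, and the 29 that span more had -0.61. All genes in SMART-Seq2 showed a smaller gap of the same sign, 0.16 for 2694 short and -0.21 for 6149 long genes. In SCRB-seq the medians were 0.21 for 4 short and -0.65 for 3 long chaperone genes, beside 0.66 for 203 short and -0.10 for 1244 long genes, gaps of about the same size. Across genes the rank correlation of span and fold change was -0.45 over 48 chaperone genes and -0.13 over 8843 genes in SMART-Seq2, and -0.61 over 7 and -0.23 over 1447 genes in SCRB-seq. The points of an assay share the same wells, and genes are not independent replicates. Hspd1, Hspe1 and Hspa8 are among the short genes and Dnajc1 is the longest at 197 kb.

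Bag6, a nuclear and cytosolic BAG protein that handles misrouted membrane proteins, gave different pictures in the 2 assays. In SCRB-seq it had a count in 48 of 48 FFPE wells (18.9 to 605 CPM, median 114) and in 11 of 16 frozen wells (0 to 127 CPM). In SMART-Seq2 it stood at 13.3 ± 2.77 CPM in frozen wells (SD, n = 3) and 38.4 ± 32.7 CPM in FFPE wells (n = 9), a gap within the spread. In plate nuclei it lay on the frozen side, as given below.

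FFPE minus frozen also depended on nuclei number in SCRB-seq for 2 of 7 chaperone genes, beside 18.9% of all genes. Dnajc5 differed by -2.62 at 10 nuclei and 0.93 at 100 (interaction adjusted p = 0.00389, edgeR). It had a median of 0 CPM in FFPE wells of 10 nuclei and 194 in those of 100 nuclei, with 59.9 and 83.8 in frozen wells. Hsp90aa1 differed by -1.64 and 0.23 (adjusted p = 0.0387, edgeR). In wells of 10 nuclei alone 1 of 3 chaperone genes passed (Hsp90aa1, lower), beside 61% of all genes. In wells of 100 nuclei alone 2 of 9 passed, both higher, Dnajc5 at 0.97 (adjusted p = 0.0382, edgeR) and Hspa8 at 0.89 (adjusted p = 0.0181, edgeR), beside 45.9%.

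Other genes of the folding machinery were read from a list of 52: heat shock factors, HSP90 and HSP70 cofactors, the TRiC chaperonin, prefoldin and ER folding genes. In SCRB-seq only 1 could be tested between methods, and 0 passed in any of the 3 contrasts, each with 0 at an unadjusted p under 0.05 in edgeR. Between FFPE and frozen wells both tested genes passed, where 58% of all genes did: Sil1, the exchange factor of Hspa5, rose by 0.97 (SE 0.28, adjusted p = 0.00246), and Pfdn1, a prefoldin subunit, fell by 2.00 (SE 0.33, adjusted p = 2.43e-07). In SMART-Seq2 0 of 41 passed between methods in edgeR, as did 0% of all genes, with 0, 1 and 1 at an unadjusted p under 0.05. Of 44 tested between FFPE and frozen wells only Trap1, the mitochondrial HSP90, passed, beside 4.09% of all genes, and fell by 4.07 (SE 1.10, adjusted p = 0.0336). The median over the 44 was -0.15, with -0.13 over all genes.

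In plate nuclei there was 1 sample a group, so values are given with no test. FFPE nuclei had a median of 47887 counts and frozen nuclei 255329, and the FFPE and frozen nuclei are annotated to opposite hemispheres. Chaperone genes took 0.427% of pooled FFPE counts and 0.595% of frozen counts. Both values rested on few nuclei. In 2 frozen nuclei Hspa8 took 43.1% and 32.9% of all counts, where the next frozen nucleus had 0.399% and the highest FFPE nucleus 1.99%. Without these 2 the frozen share was 0.546%, and without the 9 FFPE nuclei that are not in the batch 2 table the FFPE share was 0.553%, so no order of the pooled shares was kept. The medians over nuclei were 0.415% and 0.428%.

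Each nucleus was then thinned to the same total of 10000 counts, which kept 135 FFPE and 127 frozen nuclei. These counts are reads and not molecules, so thinning does not match the number of molecules behind them. The share of nuclei with a count was higher in FFPE for 12 of 77 chaperone genes, lower for 59 and equal for 6, while it was lower in FFPE for 64.4% of all 21275 genes with a count. Exact 95% binomial intervals lay apart for 13 genes, all of them lower in FFPE: Bag5, Bag6, Dnajb11, Dnajc5, Dnajc14, Dnajc15, Dnajc17, Dnajc18, Hspa4, Hspa5, Hspa12a, Hspb1 and Hsph1. That is 16.9% of the 77, beside 14.9% of all genes. With the FFPE nuclei of batch 2 alone 15 lay apart, beside 16.2% of all genes, and without thinning 51, beside 46.5%. After thinning, the share of chaperone genes with intervals apart was thus near that of all genes. The intervals cover counting error only, and nuclei are not replicates.

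The genes with the most counts had overlapping intervals. Hspa8 was found in 62.2% of FFPE nuclei (53.5% to 70.4%) and 72.4% of frozen nuclei (63.8% to 79.99%) after thinning, and in 79.7% and 87.6% before. Hsp90ab1 was found in 60.0% and 66.9%, Hsp90aa1 in 48.1% and 48.0%, and Dnajc6 in 26.7% and 29.1%.

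Dnajc5, Bag6 and Hsph1 were among the genes with intervals apart. Dnajc5 was found in 23.7% of FFPE nuclei (16.8% to 31.8%) and 47.2% of frozen nuclei (38.3% to 56.3%). Bag6 was found in 8.89% (4.68% to 15.01%) and 40.2% (31.6% to 49.2%), and Hsph1 in 4.44% (1.65% to 9.42%) and 35.4% (27.1% to 44.4%). The gap for Bag6 runs against SCRB-seq, where FFPE wells were the higher ones. Before thinning these genes were found in 16.1% and 63.5% (Bag6) and in 11.9% and 59.1% (Hsph1).

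Among the HSP70 genes Hspa12a was found in 13.3% of FFPE and 34.6% of frozen nuclei after thinning, as its bulk wells had been ordered in SMART-Seq2, and Hspa5 in 3.70% and 18.9%. Hspb1 was found in 0 of 135 FFPE nuclei, which allows a share of up to 2.22% after thinning, and in 8.66% of 127 frozen nuclei. Before thinning it was found in 3.50% of FFPE nuclei (1.14% to 7.97%) and 21.2% of frozen nuclei, on both frozen plates (23.2% and 19.1%). Hspa1a was found in 2.96% of FFPE nuclei and 0 of 127 frozen nuclei, which allows up to 2.36%. Before thinning the order was the opposite, with 4 of 143 FFPE nuclei (2.80%) and 6 of 137 frozen nuclei (4.38%), so no order is read. Hspd1 was found in 12.6% and 10.2%.

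**Figure D4:**
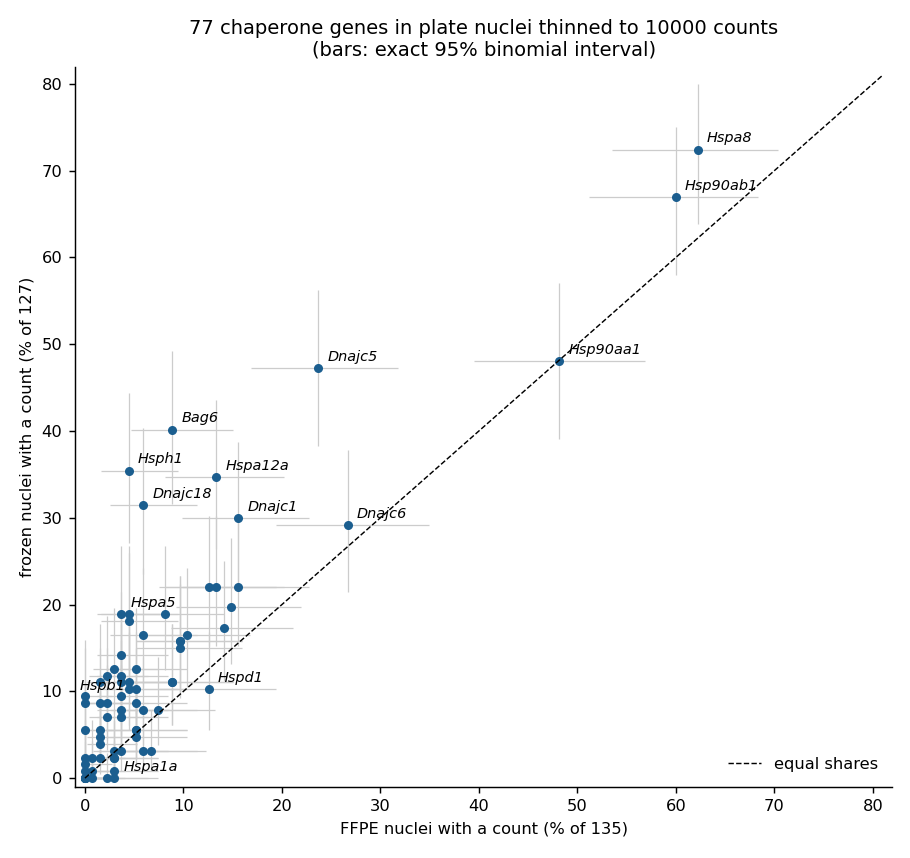
Percent of nuclei with at least 1 count of each of 77 chaperone genes after thinning to 10000 counts, in 135 FFPE nuclei (horizontal axis) and 127 frozen nuclei (vertical axis), with bars for exact 95% binomial intervals and a dashed line where the shares are equal. Of the 77 genes 59 lie above the line, as do 64.4% of all genes with a count, with Bag6, Hsph1 and Dnajc5 among the farthest and Hsp90aa1 on it.

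Single nuclei could hold most of a gene's counts. In plate batch 1 Hspa9 had 5958 counts, 94.0% of them in 1 of the 9 nuclei with a count. In batch 2 Dnajc25 and Hspa4 had 99.8% and 97.0% of their counts in 1 nucleus each. Chaperone genes took 0.283% of counts in batch 1 and 0.553% in batch 2. By plate these pooled shares were 0.235% (70 nuclei) and 0.546% (28 nuclei) in batch 1 and 0.569% and 0.538% in batch 2, so the pooled gap depends on 1 plate. The medians over nuclei did not depend on it: they were 0.208% and 0.211% on the batch 1 plates, in the same order, and 0.415% and 0.416% on those of batch 2. Hsp90ab1 was found in 35.7% of batch 1 and 69.4% of batch 2 nuclei, and Hspa8 in 40.8% and 78.4%, although the median depth was 180584 counts in batch 1 and 42747 in batch 2. The lower shares were thus in the deeper batch.

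In droplets a nucleus had a median of 325 UMIs (unique molecules), and chaperone genes took 11258 of 2605198 UMIs (0.432%). Hsp90ab1 led with 1681 UMIs in 21.1% of nuclei, followed by Hspa8 with 1257 in 16.1%, Dnajc6 with 746 in 9.87%, Dnajc5 with 550 in 7.48% and Dnajb6, a J protein that holds back protein aggregation, with 377 in 5.11%. Hsp90aa1 had 93 UMIs, so its ratio to Hsp90ab1 was 0.0553 here, against 0.523 in plate batch 1, 0.261 in batch 2, 0.259 in the FFPE plate nuclei (most of them those of batch 2) and 0.283 in the frozen plate nuclei. Summed by method, the ratio in bulk wells ran from 0.512 (SCRB-seq, room temperature) to 1.58 (SMART-Seq2, mineral oil). Of the genes that heat induces in living cells, Hsph1 had 163 UMIs in 2.28% of nuclei, Dnajb1 57 in 0.796%, Hspb1 26 in 0.370%, Hspa1a 22 in 0.313% and Hspa1b 11 in 0.156%.

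The droplet nuclei fell into 12 classes of the deposited annotation. No doublet caller was run here, and no source used here says how doublets were treated. All classes carried neuron markers, at 3281 to 6369 CPM (here UMIs scaled in the same way as counts), and cerebellar granule markers, at 505 to 1119 CPM, and the part of UMIs from outside a nucleus in the values below was not tested. Of 5016 pairs of classes over 76 genes, exact Poisson intervals lay apart in 35 (0.698%), in 11 genes, beside 1.98% of the pairs over all 17141 genes with a UMI. The median chaperone gene with a UMI had 72 UMIs over all classes (40 for all genes), so intervals in single classes are wide. Hsp90ab1 was highest in endothelial nuclei, at 901 CPM (671 to 1185), and its interval lay apart from those of ExNeuron3 (575, 502 to 655) and ExNeuron4 (559, 478 to 650). Its lowest value, 505 in fibroblasts, had a wide interval (242 to 928). Thinned to 300 UMIs it was found in 27.0% of 89 endothelial nuclei, 15.1% of ExNeuron3 nuclei and 8.11% of 37 microglia (1.70% to 21.9%).

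Hspa9 differed in 8 of its 66 pairs of classes, all 8 with ExNeuron5, where it had 4 UMIs (30.0 CPM, 8.17 to 76.8) and the apart classes 137 to 212 CPM. Hspg2, the perlecan gene, differed in 5 pairs, with 4 of its 11 UMIs in the 174 endothelial nuclei (70.7 CPM, 19.3 to 181). Hspb1 was at the same 70.7 CPM there. For Dnajc6 the intervals of all 66 pairs overlapped, from 141 CPM (61.0 to 279) in endothelial nuclei to 353 CPM (142 to 728) in fibroblasts. For Dnajc5 1 pair lay apart, ExNeuron2 at 289 CPM (235 to 352) and ExNeuron3 at 177 CPM (138 to 224), while its highest value was in microglia, at 307 CPM (140 to 583). Hspa8 ran from 379 CPM (254 to 544) in oligodendrocyte precursors to 606 in fibroblasts, with overlapping intervals.

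**Figure D5:**
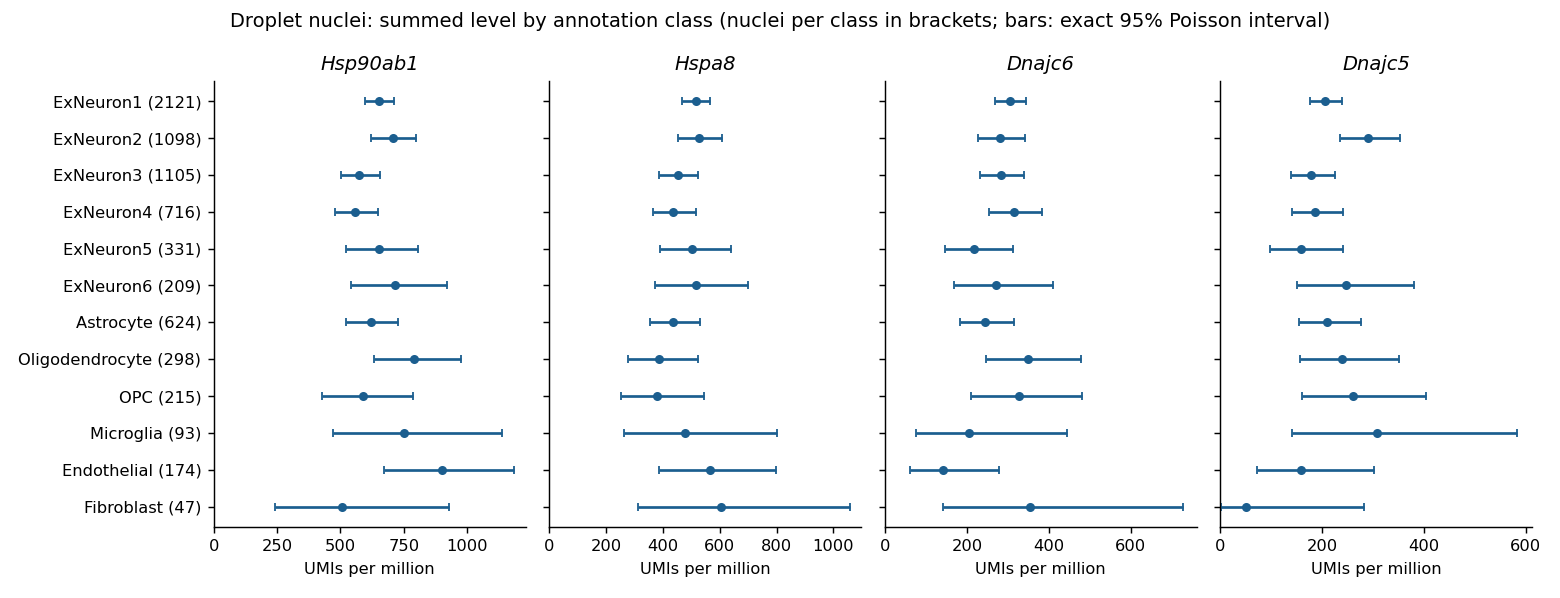
Level in CPM (scaled UMIs) of Hsp90ab1, Hspa8, Dnajc6 and Dnajc5 in the 12 droplet classes, with exact 95% Poisson intervals that cover counting error only. Intervals overlap for nearly all classes, with Hsp90ab1 highest in endothelial nuclei at 901 CPM and Dnajc6 lowest there at 141.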

How the data were processed

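The deposited bulk and plate tables give whole-number counts for each gene in each well or nucleus, and the droplet table UMI counts, per the file headers. The genome builds hg19 and mm10 are named in the submitters' processing notes; no source used here gives the aligner, the counting software, the use of strand or any collapse of SCRB-seq reads by UMI. SCRB-seq counts on 10653 human genes were left out. Wells, plates and classes were taken from the authors' annotation tables, and 0 columns of sample values were set aside. The table of plate batch 3 holds no nuclei.

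Genes were tested in edgeR 4.0.16 with R 4.3.3 (TMM, filterByExpr, quasi-likelihood test, no covariates), over all FFPE wells of an assay, or with the frozen wells added. Every adjusted p is Benjamini-Hochberg over all mouse genes tested, with a threshold of 0.05. DESeq2 1.42.0 was an alternative. The interaction of method and nuclei number was added after the data were seen. Sums have exact Poisson and shares exact binomial 95% intervals (scipy 1.17.1), and a count of 0 is read as allowing 3 counts. Thinning drew 10000 counts per plate nucleus or 300 UMIs per droplet nucleus. Python 3.11.15, pandas 2.3.3, numpy 2.4.6 and matplotlib 3.10.9 were used. The fits were tested on simulated data.

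Named genes were all those called by the main edgeR fit with the filter on low counts, a set list of 23 chaperone genes and the 5 with the most counts in each table. Genes called only without the filter were counted but not all named. Others named because their values stood out were chosen after those were seen. The members, the gene lists and the rules were chosen with earlier results of these data known. Positions are from GENCODE M21 (GRCm38), which held all 78 genes, and promoter sequences from RefSeq (GRCm38.p6). Of the 78 genes, 34 overlap a gene on the other strand and 22 one on the same strand, so their counts may be shared with it.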

Additional observations from a re-analysis of the deposited data

Results flagged for a closer look

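In 11 of 64 groups of 8 SCRB-seq wells 1 well lay far above the others by Dixon's criterion. Chance meets it in about 1 in 20 groups of normal values, a rate that does not hold here: the 64 groups are 8 measures on the same 8 sets of wells, and a set with a count in 1 well alone meets it by construction, as for Dnajc1 and Dnajc6 in mineral oil. For Dnajc1 these were a heated-xylene well of 10 nuclei at 860 CPM (next well 115) and a mineral-oil well of 10 nuclei at 133 CPM (next 0). For Dnajc5 they were a room-temperature well of 10 nuclei at 77.02 CPM (next 18.3), a frozen well of 10 nuclei at 324.5 CPM (next 114) and a mineral-oil well of 100 nuclei at 743 CPM (next 231). For Dnajc6 they were wells of 10 nuclei at 465 CPM at room temperature (next 154), 332 CPM in heated xylene (next 151) and 90.4 CPM in mineral oil (next 0). Hsp90aa1 reached 1839 CPM in a frozen well of 10 nuclei (next 566) and Hspa8 1534 CPM in a mineral-oil well of 10 nuclei (next 60.9). All chaperone genes together took 0.627% of counts in 1 frozen well of 10 nuclei (next 0.372%). Of the 11, 10 were wells of 10 nuclei, where 1 count weighs most.

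Differences that themselves differed between wells of 10 and 100 nuclei passed the edgeR interaction term 9 times. On the log2 scale, 10 minus 100 nuclei, heated minus room-temperature xylene gave 3.94 for Hsp90aa1. Mineral oil minus heated xylene gave -3.62 for Hsp90ab1 and -4.03 for Dnaja2. Mineral oil minus room-temperature xylene gave 2.63 for Hsp90aa1, -3.27 for Hsp90ab1, -3.50 for Dnajc6 and -2.91 for Dnaja2. FFPE minus frozen gave -3.55 for Dnajc5 and -1.87 for Hsp90aa1. Each set of 8 wells was 1 pool, so the pool cannot be told apart from the nuclei number.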

How the results depend on the processing

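Without the filter on low counts SCRB-seq called 16 chaperone genes for heated minus room-temperature xylene, 20 for mineral oil minus heated xylene, 15 for mineral oil minus room-temperature xylene and 16 for FFPE minus frozen, by testing up to 73 genes in place of 5 or 7. In the same order 15.9%, 18.8%, 16.1% and 25.2% of all genes were called. Mineral oil minus heated xylene gave 1 call in wells of 10 nuclei alone (Hsp90ab1, -3.38 on the log2 scale, adjusted p = 0.00162, edgeR), beside 20.8% of all genes. It gave 1 in wells of 100 nuclei alone (Dnaja2, 1.35, adjusted p = 0.0472, edgeR), beside 13.1%. Mineral oil minus room-temperature xylene gave 1 call in wells of 10 nuclei alone (Hsp90ab1, lower), where 97 of 509 genes were called. It gave 0 calls in wells of 100 nuclei alone, with 1 chaperone gene at an unadjusted p under 0.05 in edgeR. For FFPE minus frozen SCRB-seq gave 4 calls by the DESeq2 Wald test (Hsp90aa1, Hsp90ab1, Dnajc1 and Dnajc6, all lower), where it called 67.9% of all genes, 686 of 1003 lower. Size factors from positive counts, an alternative chosen after seeing the data, gave 1 (Hspa8, higher), beside 56.4% of all genes. Wells of 10 nuclei alone gave 1 (Hsp90aa1, lower), beside 61%, and wells of 100 nuclei alone gave 2 (Dnajc5 and Hspa8, higher), beside 45.9%. SMART-Seq2 gave 3 for FFPE minus frozen by DESeq2 and 0 to 1 when each well was left out in turn; in the method contrasts it gave 0 chaperone genes when each well was left out in turn. Hsp90aa1 turned to -0.062 for heated minus room-temperature xylene in wells of 100 nuclei. For mineral oil minus heated xylene in those wells Hsp90ab1 turned to 0.27, and Dnaja2 turned to 0.024 with DESeq2's size factors and 0.033 by its Wald test. The cause was not tested. The chaperone share of plate FFPE nuclei moved from 0.427% to 0.577% as a mean over nuclei, 0.553% without the 9 nuclei and 0.573% thinned. The frozen share moved from 0.595% to 1.09%, to 1.121% thinned, to 0.546% without the 2 nuclei rich in Hspa8 and to 0.544% as a mean without them. Batch 1 moved from 0.283% to 0.307% and batch 2 from 0.553% to 0.576% as means, ExNeuron2 from 0.468% to 0.414% and microglia from 0.430% to 0.315% when thinned. No paired analysis was possible because the labels give the groups no replicate numbers in common. With the nuclei number, which the wells do share, as a term in the fit, SMART-Seq2 called 0 chaperone genes in each contrast, beside 429 of all genes for FFPE minus frozen, and the SCRB-seq calls were the same (0, 0, 1 and 2). Few counts per gene limit the SCRB-seq tests to 5 or 7 genes.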
